A study of Ovis aries with 7 samples.

Results

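The SWI/SNF and ISWI chromatin remodelers are described here by a list of 10 named genes, drawn up with earlier results of these data known: SMARCA2, SMARCA4, SMARCA5, SMARCB1, SMARCC1, SMARCD1, SMARCE1, ARID1A, ARID2 and ACTL6A. All 10 were found under these symbols among the 31304 rows of the expression table. Smart-seq2, a method for very small amounts of RNA, was applied to polyA RNA of 8-cell embryos of the sheep, Ovis aries. The labels name 3 libraries from in vitro fertilization (IVF) and 4 from cloning by somatic cell nuclear transfer (SCNT), in which the nucleus of a somatic cell replaces that of the egg. The values below belong to IVF replicates 1, 2 and 3. The names of 4 further columns match none of the sample labels, so those columns were left aside, the SCNT libraries were not analysed here, and no difference from IVF is given. No source used here gives the number of embryos per library, their breed or the origin of the gametes. Nothing says which libraries came from separate trials. The p-values therefore speak only for these libraries, and some of the spread between them may be technical.

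SWI/SNF complexes, also called BAF, use the energy of ATP to slide or evict nucleosomes and so open DNA at enhancers and promoters. Each complex holds a single ATPase, either SMARCA4 or SMARCA2. In the canonical BAF and PBAF forms the core is built around SMARCC, SMARCD, SMARCB1 and SMARCE1 subunits. An ARID protein sets which of these forms it is. ISWI complexes are driven by SMARCA5 or SMARCA1, and many of them, though not all, space nucleosomes evenly. In mouse embryos, SMARCA4 of maternal origin is known to be needed for genome activation, and stem cell BAF is known for using SMARCA4 rather than SMARCA2.

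Levels are in TPM, transcript abundance corrected for the length of each gene and scaled to the same total in each library. Different genes are set side by side on that scale. It does not correct for differences between genes in polyA capture or in amplification, here 20 PCR cycles. The unit does not preserve how deeply a library was sequenced, and counting intervals cannot be given. Between 10973 and 12246 rows per library stood at 1 TPM or more. Of the early embryo and oocyte markers, 10 of 10 genes had at least 1 TPM in each library, and they summed to 1905 to 3147 TPM. That list includes oocyte genes such as GDF9, BMP15 and ZP3, so it does not pin down the labelled stage. Only VIM among 8 fibroblast markers did so, the list summing to 10.2 to 15.1 TPM. THY1 passed 1 TPM only in replicates 1 and 3, with 2.47 and 1.73. COL1A2 passed it only in replicates 2 and 3, with 2.78 and 1.57, and COL3A1 only in replicate 2, with 1.14. COL1A1, PDGFRB, DCN and LUM stayed below it. Among 8 cumulus and granulosa markers, HAS2 alone had at least 1 TPM in each library (9.60 to 16.5 TPM summed over the list). PTX3 and FOXL2 were listed at 0 in every library. TNFAIP6 was at 0.166, 2.94 and 1.09 TPM in replicates 1, 2 and 3. FSHR, CYP19A1, AMH and INHA were below 1 TPM throughout, but above 0 in some libraries. The part of such other cells in the levels below was not tested.

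All 10 remodeler genes had at least 1 TPM in all 3 libraries, against 49.0% of 16539 rows with a gene symbol. The genes were not drawn at random, so that share is a background and no test of the list. Their median level was 10.6, 12.2 and 13.6 TPM in replicates 1, 2 and 3, a mean of 12.1 ± 1.49 (SD, n = 3, as for every mean ± SD below), beside 1.51 ± 0.213 for all symbol rows. SMARCE1 and SMARCA5 stood far above the rest and together held 63.4 ± 4.29% of the summed TPM of the 10 genes. The mean of the highest gene, SMARCE1, was 25.3 times that of the lowest, SMARCA2.

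**Figure D1:**
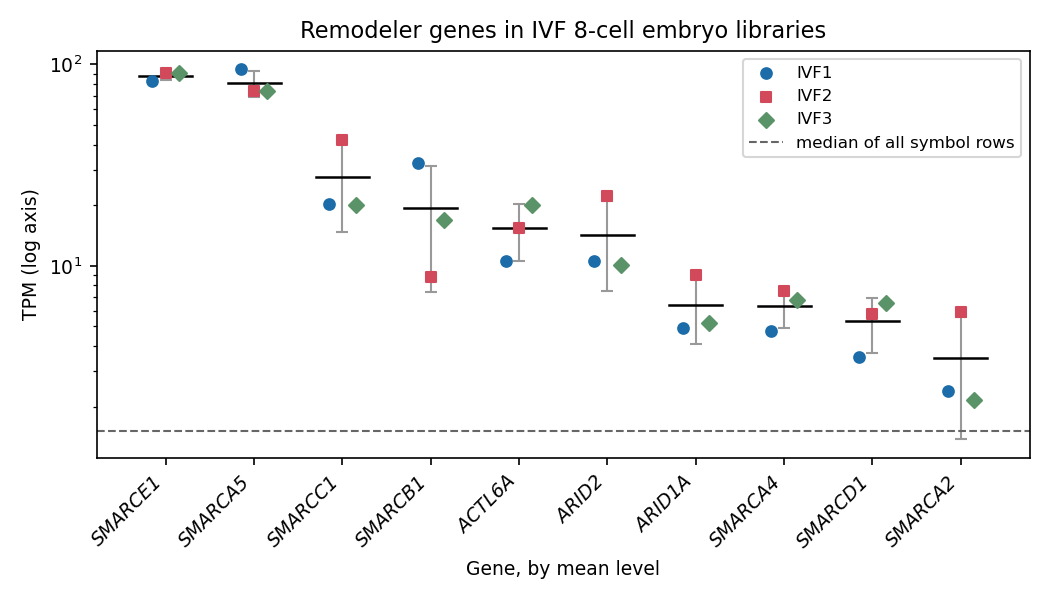
TPM of each remodeler gene (log axis) in IVF replicates 1, 2 and 3 (points), with the mean (black line) and SD (grey bar), ordered by mean; the dashed line is the median of all symbol rows. SMARCE1 and SMARCA5 lie between 73.5 and 94.7 TPM in every library, while SMARCA2 lies between 2.16 and 5.92.

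The SWI/SNF ATPases were among the scarcest members. SMARCA4 stood at 4.72, 7.47 and 6.77 TPM in replicates 1, 2 and 3, a mean of 6.32 ± 1.43. SMARCA2 stood at 2.39, 5.92 and 2.16 TPM in the same order, a mean of 3.49 ± 2.11. The single high SMARCA2 value lay in replicate 2, and without that library its mean was 2.27 TPM. SMARCA4 exceeded SMARCA2 within each of the 3 libraries, by 1.26 to 3.13 times in TPM, or 0.78 ± 0.50 on the log2(TPM + 1) scale. SMARCA4 made up 66.4, 55.8 and 75.8% of the summed TPM of both ATPases.

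The ISWI ATPase SMARCA5 was an order of magnitude more abundant. It stood at 94.7, 74.0 and 73.5 TPM in replicates 1, 2 and 3, a mean of 80.7 ± 12.1, and lay at the percentile 93.0 of symbol rows by mean TPM, beside 68.1 for SMARCA4 and 60.3 for SMARCA2. In the same order, its paralog SMARCA1 had levels of 1.70, 1.55 and 0.854 TPM. Within libraries SMARCA5 exceeded SMARCA1 by 47.7 to 86.1 times, a difference of 5.12 ± 0.23 in log2(TPM + 1). It also exceeded SMARCA4 in all 3 libraries, by 9.90 to 20.1 times or 3.49 ± 0.50 in log2(TPM + 1). That last pair was chosen after the values were seen.

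Core subunits of SWI/SNF spanned a wide range. SMARCE1, the HMG-box subunit, was the most even member, at 83.1, 90.8 and 90.5 TPM and a mean of 88.1 ± 4.38. SMARCC1, the scaffold on which the core assembles, was at 20.2, 42.4 and 20.1 TPM, a mean of 27.6 ± 12.8, with replicate 2 far above the other two. Its paralog SMARCC2 was at 11.4, 6.46 and 6.11 TPM, highest in replicate 1. SMARCC1 exceeded SMARCC2 in all 3 libraries by 1.77 to 6.57 times, or 1.63 ± 0.89 in log2(TPM + 1), and made up 75.8 ± 11.5% of their sum.

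SMARCB1, the core subunit lost in rhabdoid tumours, was the least even member. Its level was 32.3, 8.77 and 17.0 TPM in replicates 1, 2 and 3, a mean of 19.4 ± 12.0 and a range of 3.68 times, beside 1.09 times for SMARCE1. Without replicate 1 its mean was 12.9 TPM.

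The SMARCD position, which links the complex to transcription factors, was the one position led by a gene outside the members. SMARCD1 stood at 3.51, 5.80 and 6.57 TPM, a mean of 5.30 ± 1.59. SMARCD2 stood at 11.4, 20.9 and 13.1 TPM, a mean of 15.1 ± 5.05, and the ranges of both genes did not overlap. SMARCD1 was below SMARCD2 in 3 of 3 libraries, with a difference of -1.35 ± 0.41 in log2(TPM + 1), and made up 26.2 ± 6.32% of the summed SMARCD level. SMARCD3, known from heart and muscle complexes, was between 0.00998 and 0.0217 TPM.

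ARID subunits tell the canonical BAF and PBAF forms of SWI/SNF apart. ARID1A, of the canonical BAF form, was at 4.92, 8.99 and 5.18 TPM, a mean of 6.36 ± 2.28. Its paralog ARID1B was at 0.782, 0.783 and 0.737 TPM, so ARID1A exceeded it by 6.29 to 11.5 times, or 2.02 ± 0.41 in log2(TPM + 1). ARID2, which marks the PBAF form, was at 10.6, 22.1 and 10.2 TPM, a mean of 14.3 ± 6.79. It exceeded ARID1A by 1.96 to 2.46 times in each library, a difference of 1.01 ± 0.18, and made up 65.9 ± 3.17% of the summed TPM of the 3 ARID genes. Both ARID1A and ARID2 were highest in replicate 2 and close together in replicates 1 and 3, so their ratio varied less than either level.

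ACTL6A, an actin-related subunit shared by BAF with the INO80 and TIP60 complexes, stood at 10.6, 15.4 and 20.2 TPM, a mean of 15.4 ± 4.81. The neuronal form ACTL6B was listed at 0 in replicate 3, and its levels in replicates 1 and 2 were 0.318 and 0.110 TPM. Within libraries the difference was 3.81 ± 0.64 in log2(TPM + 1), and no fold is given because of the 0.

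**Figure D2:**
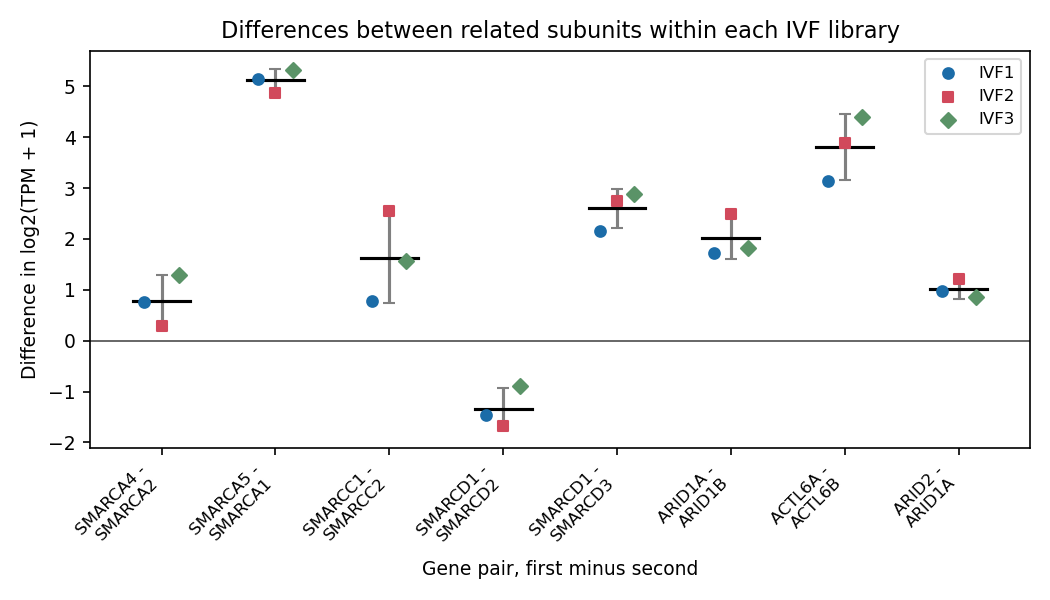
Difference in log2(TPM + 1) between 2 related subunits within each IVF library (points), with the mean (black line) and SD (grey bar) over 3 libraries. In 7 of 8 pairs the first gene is higher in every library, from 0.78 for SMARCA4 over SMARCA2 to 5.12 for SMARCA5 over SMARCA1, while SMARCD1 lies below SMARCD2 throughout.

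The 8 pair differences each had the same sign in 3 of 3 libraries and a mean larger than its SD. An exact two-sided sign-flip permutation test over 3 libraries gave p = 0.25 for each, which is the smallest p it can give, and 0.25 after Benjamini-Hochberg adjustment over the 8. No pair can therefore pass a threshold of 0.05 in this design. That p is given whenever the signs of all 3 libraries agree, so it does not reflect the spread between them. The size of every pair difference depends on the pseudocount. With pseudocounts of 0.1 and 5, SMARCD1 over SMARCD3 was 5.51 and 1.03, ACTL6A over ACTL6B 6.18 and 1.96, ARID1A over ARID1B 2.84 and 0.96, and SMARCA5 over SMARCA1 5.83 and 3.74. SMARCA4 over SMARCA2 was 0.96 and 0.44, ARID2 over ARID1A 1.11 and 0.73, SMARCC1 over SMARCC2 1.74 and 1.28, and SMARCD1 against SMARCD2 -1.50 and -0.95.

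The TPM of paralogs was also summed by position, for the positions that the members fill. Positions of other subunits, such as PBRM1 (4.43 ± 2.74 TPM), were not summed. Among the summed positions the SWI/SNF ATPase was the lowest by mean, at 7.11, 13.4 and 8.93 TPM in replicates 1, 2 and 3. Next above it by mean were the ACTL6 position at 15.5 ± 4.65 TPM, SMARCB1 at 19.4 ± 12.0, SMARCD at 20.4 ± 5.90 and ARID at 21.4 ± 9.07. The SMARCC scaffold reached 35.5 ± 11.8, the ISWI ATPases 82.1 ± 12.4 and SMARCE1 88.1 ± 4.38. Replicate 2 is the exception to the ATPase position being lowest, since SMARCB1 was at 8.77 TPM there. These are RNA levels and do not give the makeup of the protein complexes.

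**Figure D3:**
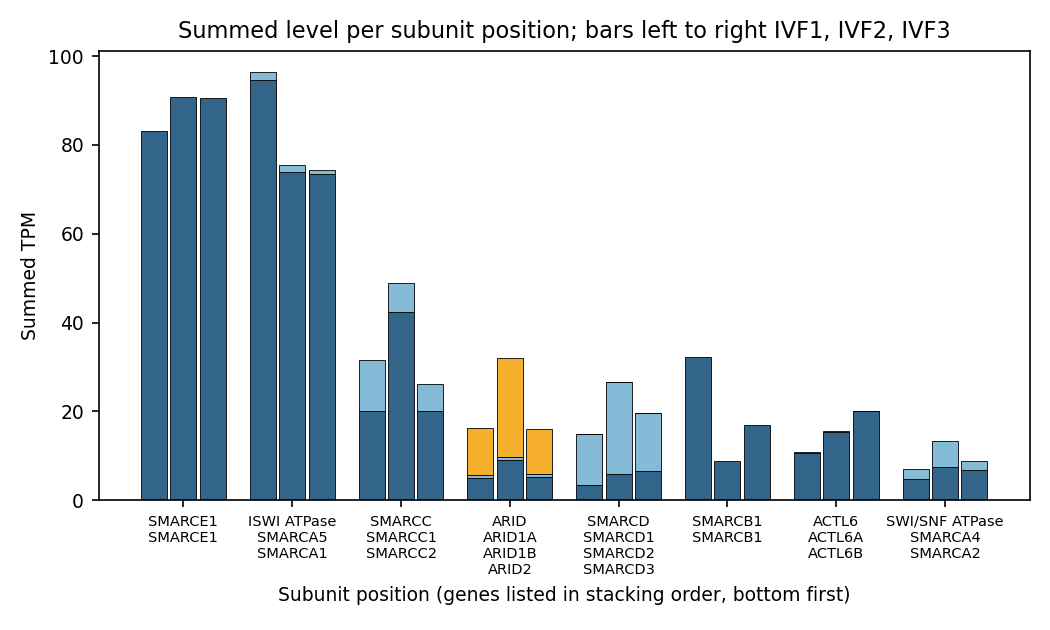
Summed TPM of the genes for each subunit position held by a member, in 3 bars for IVF replicates 1, 2 and 3 from left to right, stacked by gene. The SWI/SNF ATPase position sums to 7.11 to 13.4 TPM, beside 74.4 to 96.4 TPM for the ISWI ATPases.

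By mean level the order was SMARCE1, SMARCA5, SMARCC1, SMARCB1, ACTL6A, ARID2, ARID1A, SMARCA4, SMARCD1 and SMARCA2. Of the 9 neighbouring pairs in that order, 3 differed within libraries by more than the SD of the difference. These were SMARCA5 over SMARCC1 (1.59 ± 0.72 in log2(TPM + 1)), ARID2 over ARID1A, given above, and SMARCA4 over SMARCD1 (0.23 ± 0.17). The other 6 pairs, from SMARCE1 and SMARCA5 (0.13 ± 0.28) to SMARCD1 and SMARCA2 (0.55 ± 0.65), did not. SMARCA5 was above SMARCE1 in replicate 1 and below it in the others. The neighbouring steps from SMARCC1 to ARID2 are thus not resolved by 3 libraries. The ends of that stretch were apart within each library. SMARCC1 was at 20.2, 42.4 and 20.1 TPM in replicates 1, 2 and 3, beside 10.6, 22.1 and 10.2 for ARID2.

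Among the 10 members, 6 were highest in replicate 2, SMARCB1 and SMARCA5 in replicate 1, and SMARCD1 and ACTL6A in replicate 3. Of the 9 members averaging 5 TPM or more, 5 were highest in replicate 2, as were 49.3% of 6978 genes at that level, so this count does not set the members apart. These 9 were compared with the mean of the other 2 libraries in log2(TPM + 1). SMARCA2, averaging 3.49 TPM, was left out by that minimum, though it too was high in replicate 2 (2.39, 5.92 and 2.16 TPM). SMARCC1 (1.04) and ARID2 (1.02) were at least 2-fold above in replicate 2, where 12.8% of 6978 genes were. SMARCB1 was the only member at least 2-fold below there (-1.32), as 3.85% of genes were. It was also the only one at least 2-fold above in replicate 1 (1.33), as 5.65% of genes were. No member was 2-fold below in replicate 1, where 7.71% of genes were, or 2-fold off in replicate 3, where 0.817% of genes were above and 2.62% below.

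Replicate 2 differed from the others as a library too. Its median gene deviated by 0.19 in log2(TPM + 1), and mitochondrially encoded genes took 4.88% of its TPM, beside 2.25 and 1.66% in replicates 1 and 3. Early embryo and oocyte markers differed as well. ZSCAN4, ARGFX and TFAP2C reached 216, 1022 and 692 TPM there. Replicate 1 gave 54.7, 376 and 164 for these genes, and replicate 3 gave 69.3, 444 and 300. KLF17, POU5F1, GDF9 and BMP15 also had their highest level there. BTG4 (272) and ZP3 (112) had their lowest, and KPNA7 lay in between. The part of these differences in the values of SMARCC1 and ARID2 was not tested. With libraries rescaled by the median of ratios, which takes out the shift of the median gene, SMARCC1 stood 0.77 and ARID2 0.76 above in replicate 2, under 2-fold. SMARCB1 stood at -1.58 there and at 1.38 in replicate 1. Under that scaling SMARCE1, ACTL6A and SMARCD1 changed from slightly above (0.07, 0.07 and 0.22) to slightly below (-0.21, -0.19 and -0.02) in replicate 2.

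**Figure D4:**
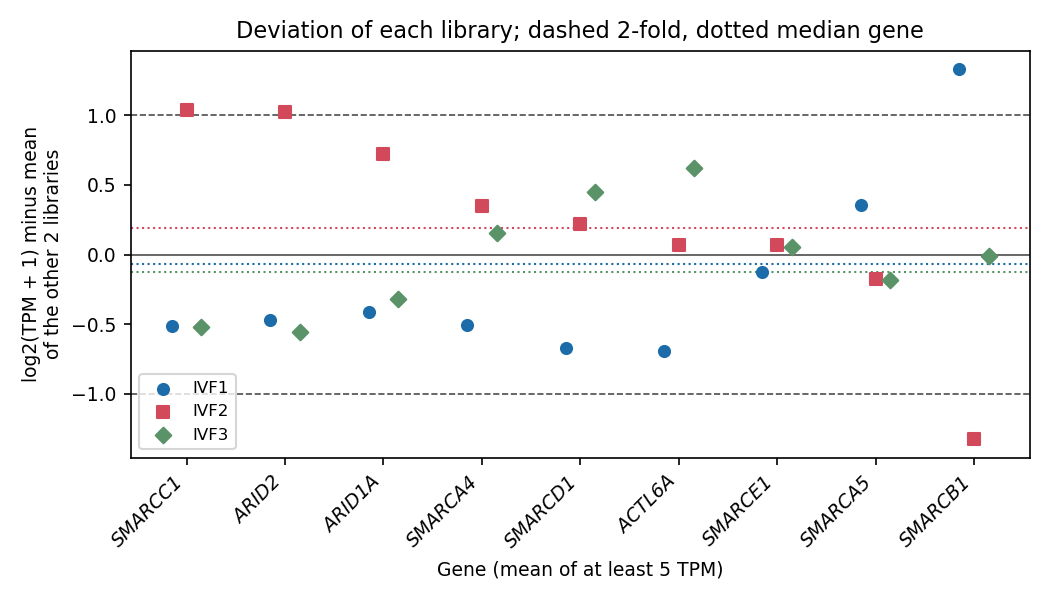
Deviation of each IVF library from the mean of the other 2 in log2(TPM + 1), for the 9 members with a mean of at least 5 TPM; dashed lines mark 2-fold and dotted lines the median of all genes in each library. SMARCB1 reaches 1.33 in replicate 1 and -1.32 in replicate 2, and SMARCC1 and ARID2 pass 1 in replicate 2.

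The other genes of these and related remodeler families gave a wider frame. Together with the 10 members, 64 of 78 genes had at least 1 TPM in all libraries, beside 49.0% of 16539 symbol rows. The lists were not drawn at random, so that share is a background for each list and no test. Of the other BAF, PBAF and ncBAF subunits 12 of 20 did, with a median of 3.55 ± 0.993 TPM. ACTB, which is also cytoskeletal actin, led them at 344 ± 87.5, followed by the PHD-finger subunit DPF2 at 80.1 ± 4.02 and BCL7B at 56.8 ± 11.3. SMARCD3 and DPF3 (0.0770 ± 0.0365) were the lowest.

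Among ISWI genes, 8 of 11 had at least 1 TPM throughout, with a median of 9.46 ± 2.02 TPM. The histone-binding proteins RBBP7 and RBBP4, shared with other complexes, led at 771 ± 69.4 and 298 ± 118. BAZ1A, the partner of SMARCA5 in the ACF and CHRAC complexes, followed at 26.1 ± 14.6. POLE3, a histone-fold subunit of CHRAC, was at 1.02 ± 0.511 and BAZ2B at 0.666 ± 0.341. CECR2 was not analysed here.

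In the CHD and NuRD list 14 of 17 genes reached that level, with a median of 5.68 ± 2.87 TPM. CDK2AP1 was at 116 ± 15.9, the ATPase CHD1 at 13.6 ± 7.28 and GATAD2A at 11.8 ± 3.44, while CHD3 (0.107 ± 0.163) and CHD5 (0.0323 ± 0.0300) were lowest. The INO80, SRCAP and TIP60 list was complete, with 20 of 20 genes and a median of 13.2 ± 1.25 TPM. ZNHIT1 and VPS72, which act in placing the histone variant H2A.Z, were at 753 ± 194 and 331 ± 133, and YEATS4 was at 106 ± 30.7. TFPT (1.95 ± 0.447) and ACTR8 (1.71 ± 0.819) were lowest of that list.

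**Figure D5:**
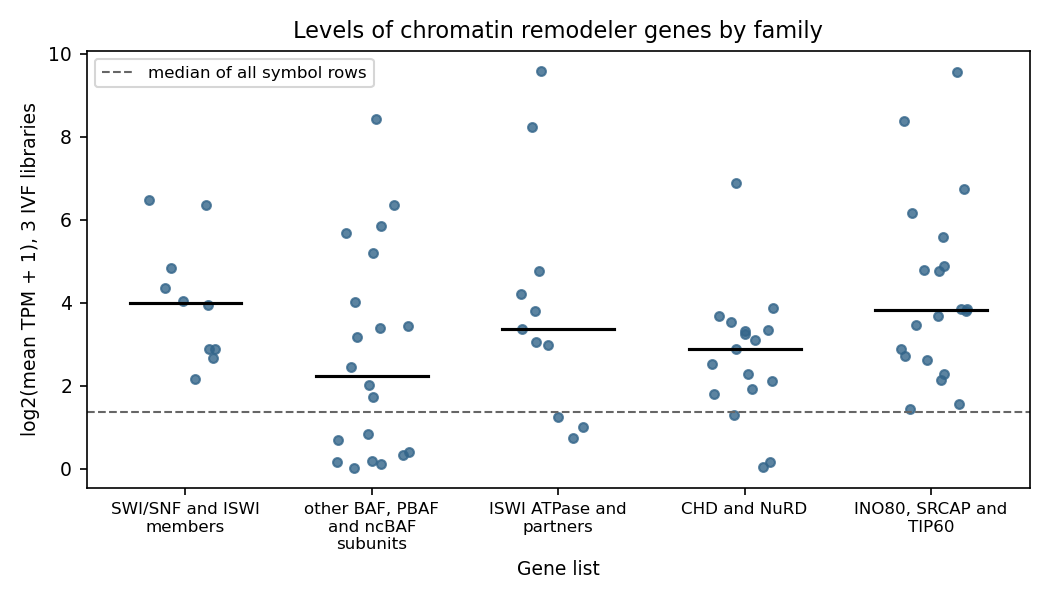
Level of each remodeler gene as log2(mean TPM + 1) over 3 IVF libraries, by list, with the list median (black line) and the median of all symbol rows (dashed line). Every list holds genes far above the dashed line, and all lists but the 10 members and the INO80, SRCAP and TIP60 genes hold genes below it.

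Among symbol rows averaging 5 TPM or more, those nearest in level and pattern over the 3 libraries were PSMD12 for SMARCA5 (95.5, 74.7 and 76.2 TPM) and DONSON for SMARCA4 (4.80, 7.40 and 7.14 TPM). Their Euclidean distances in log2(TPM + 1) were 0.0546 and 0.0716. Within a distance of 0.5 there were 141 genes around SMARCA5 and 231 around SMARCA4, so 3 libraries single out no partner. For SMARCA2 no gene is named, because the minimum of 5 TPM leaves out genes at its own level.

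Overlapping annotation touched 4 members. In the RefSeq gene table of ARS-UI_Ramb_v3.0, SMARCA4 overlaps LOC114114829, SMARCA5 overlaps FREM3, ARID1A overlaps PIGV and LOC105611280, and ACTL6A overlaps MRPL47. No source used here says whether counting used strand, so reads in shared stretches cannot be told apart. Only MRPL47 reached 1 TPM, at 8.08, 25.6 and 9.38 in replicates 1, 2 and 3, a different order of libraries from that of ACTL6A.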

How the data were processed

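Per the submitters' processing notes, fastp 0.23.4 and HISAT2 2.2.1 were used upstream, and the builds named there are of mouse and pig. For the sheep table, the build, annotation and counter are not given in the sources used. The authors deposited TPM for 31304 rows, and each column used sums to 1000000. Columns were assigned by name alone: 3 carry the titles of IVF samples, while the names of 4 others fit no label and their values were left out.

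Row names were taken as deposited, except that mitochondrially encoded protein genes were given their symbols. CYP19A1 was read from the row CYP19. Of the rows, 28875 matched the RefSeq gene table. Detection means 1 TPM or more. Differences on the log2(TPM + 1) scale are smaller than true ratios for low genes. Pairs were compared within libraries by an exact sign-flip permutation test. Named genes were the members, the paralogs of each pair, and the 3 highest and 2 lowest genes of each list. Alternatives were other pseudocounts (0.1 and 5), detection thresholds, scalings and leaving out each library. The members and the lists were both chosen with earlier results of these data known. The deviation step was tested on simulated data with changes much larger than 2-fold. That test does not show how calls near 2-fold perform. Python 3.11.15 was used with pandas 2.3.3, numpy 2.4.6 and scipy 1.17.1, and figures were drawn in matplotlib 3.10.9.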

Additional observations from a re-analysis of the deposited data

How the results depend on the processing

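No paired analysis was possible because only IVF libraries entered it. The median member, 12.1 TPM, was 14.6 without mitochondrially encoded and ribosomal protein genes, since the rest is scaled up to the same total, and 11.4 to 12.9 when each library was left out. The number of pairs with a difference beyond its SD, 8, was 4 when a pair was kept only if both genes reached 1 TPM in each library, fewer pairs being compared, and 8 whichever library was left out. The 64 remodeler genes detected in all libraries became 41 at 5 TPM and were 64 to 65 when each library was left out. The share of all symbol rows at 5 TPM is not given here, so the 41 has no background. Of 9 members compared, the 3 at least 2-fold from the other libraries became 1 with a pseudocount of 5 (SMARCB1). Median of ratios scaling also left 1 (SMARCB1). Among members averaging 20 TPM or more, where 3 were compared, it was 1 (SMARCC1). The shares of all genes under these settings are not given here. No pair changed direction under any alternative run. Depth is unknown, so low values such as those of SMARCD3 or ACTL6B cannot be told from sampling loss.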

Other observations

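Other SWI/SNF positions filled by related genes also had a leading form. These genes were chosen after their values were seen and no test was run. DPF2 stood at 80.1 ± 4.02 TPM (SD, n = 3), beside 0.317 ± 0.0267 for DPF1 and 0.0770 ± 0.0365 for DPF3, both known from neuronal or muscle complexes. SS18 was at 35.7 ± 10.1 TPM and SS18L1, its neuronal counterpart, at 3.05 ± 0.754. BCL7B was at 56.8 ± 11.3 TPM and BCL7C at 2.30 ± 0.211.

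Subunits that mark the PBAF and ncBAF forms were uneven. Of the PBAF genes beside ARID2, BRD7 was at 75.1, 45.4 and 30.2 TPM in replicates 1, 2 and 3, PHF10 at 9.92 ± 1.30 and PBRM1 at 4.43 ± 2.74. The ncBAF bromodomain subunit BRD9 was at 9.46 ± 1.77 TPM, while its scaffold genes BICRA and BICRAL were at 0.603 ± 0.159 and 0.118 ± 0.0693.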
